A study of Macaca mulatta with 4 samples.

Results

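The genes described here mark naive and central memory T cells, and their levels were followed in macaque blood across immunosuppression and an islet transplant. The list held 10 gene symbols. LEF1, TCF7, IL7R, LTB, SATB1, BACH2, FOXP1, CD28 and MAL were found by symbol among the 15354 gene rows, which gives 9 measured genes, and CD27 is not analysed here. Single-cell RNA sequencing had been made on peripheral blood mononuclear cells of rhesus macaque (Macaca mulatta), in a study of islets made from human pluripotent stem cells (hCiPSC-islets) and their possible immune response in the recipient. There were 4 libraries, with 1 library in each group. Pre-IS was taken with no immunosuppression yet given, Post-IS under immunosuppression but ahead of the transplant, and 4 wpt and 8 wpt at 4 and 8 weeks post-transplantation. The agents, the animals and their ages, and whether 1 animal gave all libraries, are not given in the sources used here. Since a group is 1 library, groups could not be tested against each other, and every difference given is between libraries.

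Naive T cells leave the thymus without having met antigen, circulate through lymph nodes and persist on interleukin-7 and contacts with self peptides. Central memory T cells share that circulation and much of that gene program, while effector T cells lose it and gain granzymes, perforin and chemokines. LEF1 and TCF7 are related transcription factors that bind beta-catenin and keep T cells in the naive and memory state. SATB1 organises chromatin in thymocytes and T cells, FOXP1 holds naive T cells in quiescence, and BACH2 represses effector genes. IL7R is the alpha chain of the interleukin-7 receptor, CD28 the costimulatory receptor for CD80 and CD86, LTB the membrane subunit of lymphotoxin, and MAL a lipid raft protein of T cells.

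The tables held 6993 cells, of which 3019 carried the authors' T cell label. In time order from Pre-IS to 8 wpt the T cells numbered 841, 115, 889 and 1174, their summed UMIs (unique molecular identifiers, tags that let copies of 1 captured RNA be counted once) were 1349957, 143725, 3171276 and 2234323, and their median UMIs per cell 1526, 1257, 3626 and 1810. The Post-IS T cells were thus few and shallow, and the 4 wpt T cells the deepest. Levels are UMIs of a gene per 1000000 UMIs (CPM) summed over the cells of a label in a library, with exact Poisson 95% intervals, which cover counting error only and treat UMIs of 1 cell as independent. In such sums, fewer cells that express a gene and less RNA per cell cannot be told apart. A count of 0 allowed up to 2.22 CPM in Pre-IS T cells, 20.9 in Post-IS, 0.946 in 4 wpt and 1.34 in 8 wpt, taking 3 counts as the floor. Checked against its markers, 96.5% to 99.7% of T cells in each library held a UMI of CD3D, CD3E, CD3G, CD2, CD5 or CD6. So did 47.1% to 65.2% of NK cells, so 1 such UMI does not set these labels apart. Summed CPM of these markers was 2755 to 3423 in T cells and 578 to 651 in NK cells. Barcodes shared between libraries numbered 0 to 12 per pair.

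LEF1, TCF7, SATB1 and IL7R were highest in the Post-IS library and lowest in 8 wpt. LEF1 stood at 271 CPM in Pre-IS T cells (95% interval 244 to 300.4), 549.7 in Post-IS (435 to 685), 274 in 4 wpt (256 to 293) and 242 in 8 wpt (222 to 263). The Post-IS interval did not overlap the other 3, which overlapped each other. TCF7 stood at 156 CPM in Pre-IS (136 to 179), 244 in Post-IS (170 to 339), 158 in 4 wpt (144 to 172) and 121 in 8 wpt (107 to 137). Its Post-IS interval overlapped those of Pre-IS and 4 wpt at the edge and lay above that of 8 wpt. The TCF7 interval of 8 wpt lay below that of 4 wpt and overlapped that of Pre-IS at the edge.

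SATB1 stood at 144 CPM in Pre-IS (124 to 165), 237 in Post-IS (164 to 331), 158 in 4 wpt (144 to 172) and 135 in 8 wpt (119.9 to 151), with the Post-IS interval above that of 8 wpt alone. FOXP1 stood at 85.2 CPM in Pre-IS, 111 in Post-IS on 16 UMIs, 102 in 4 wpt and 61.3 in 8 wpt. For FOXP1 the wide Post-IS interval, 63.6 to 181, overlapped all others, whereas the 8 wpt interval (51.5 to 72.5) lay below that of 4 wpt (91.6 to 114). BACH2 was sparse, at 9.63 CPM in Pre-IS, 6.96 in Post-IS, 6.94 in 4 wpt and 3.58 in 8 wpt, on 13, 1, 22 and 8 UMIs. All 4 BACH2 intervals overlapped.

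Among the surface and secreted proteins, IL7R stood at 1117 CPM in Pre-IS (1061 to 1175), 1510 in Post-IS (1316 to 1725), 1102 in 4 wpt (1066 to 1139) and 874 in 8 wpt (836 to 914). Post-IS lay above the other libraries and 8 wpt below them, with no overlap on either side. LTB varied least, at 1220 CPM in Pre-IS (1162 to 1280), 1232 in Post-IS (1057 to 1427), 1029 in 4 wpt (994 to 1065) and 1046 in 8 wpt (1004 to 1089). Its Pre-IS interval lay above those of 4 wpt and 8 wpt, and its Post-IS interval overlapped the Pre-IS and both later ones.

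CD28 stood apart from the other members, being highest in 4 wpt, at 37.0 CPM in Pre-IS (27.5 to 48.8), 34.8 in Post-IS (11.3 to 81.2), 59.0 in 4 wpt (50.8 to 68.1) and 37.6 in 8 wpt (30.0 to 46.6). The 4 wpt interval did not overlap those of Pre-IS and 8 wpt, and Post-IS, on 5 UMIs, overlapped all 3. MAL was close to undetected, with 3, 0, 4 and 1 UMIs in Pre-IS, Post-IS, 4 wpt and 8 wpt, the 3 of Pre-IS in a single cell. It gives no comparison.

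**Figure D1:**
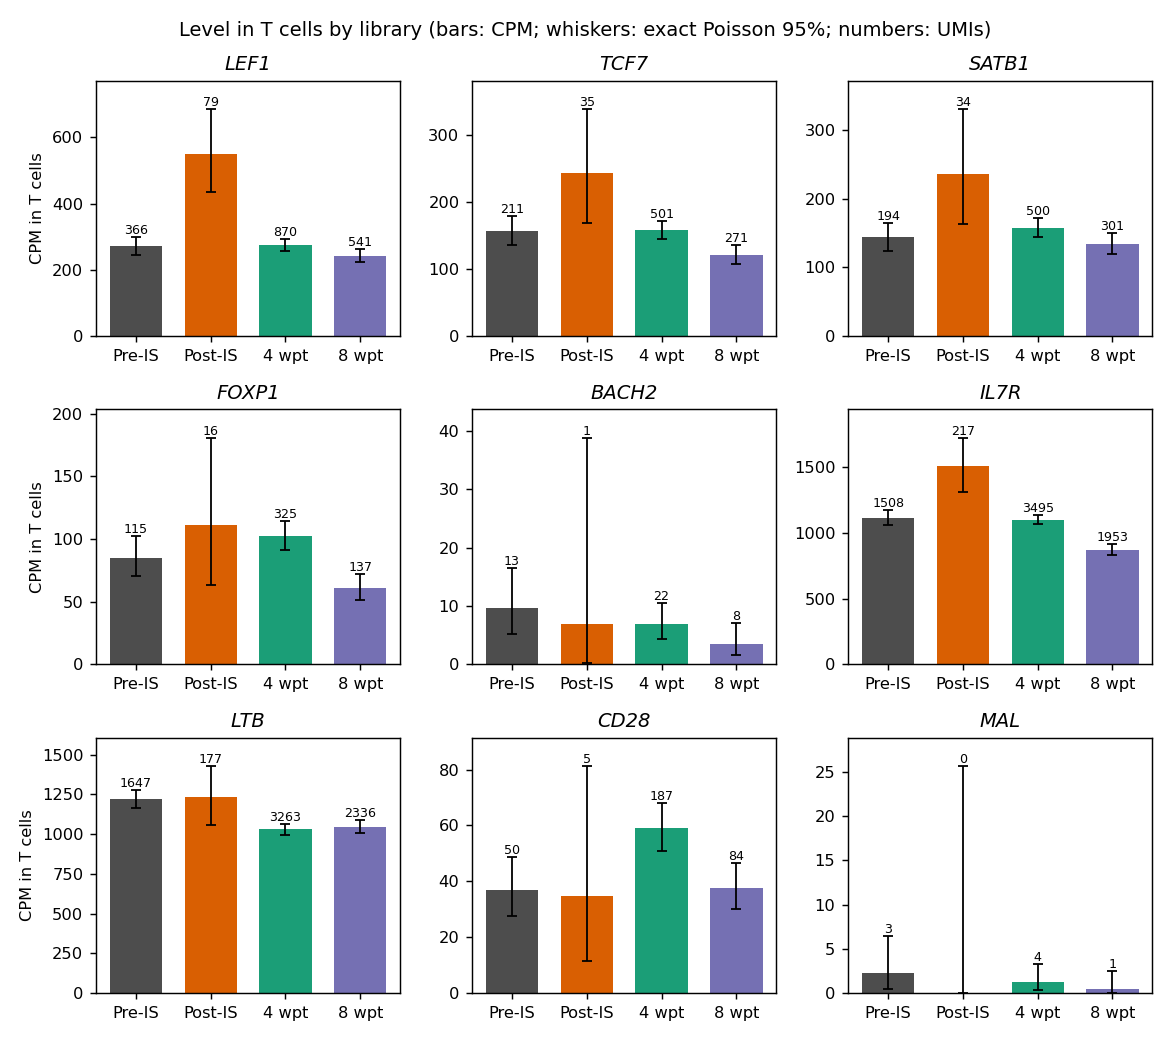
CPM of the 9 genes in T cells of the 4 libraries, each panel with its own linear axis from 0; bars are CPM, whiskers exact Poisson 95% intervals and numbers the UMIs counted. LEF1 at 549.7 CPM in Post-IS stands clear of 242 to 274 CPM in the other libraries, and CD28 is highest in 4 wpt at 59.0 CPM.

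Immunosuppression was the first step compared. A gene was measured in a comparison if both libraries together held at least 20 UMIs of it, and called if its CPM differed at least 1.5-fold. Post-IS over Pre-IS, LEF1 was 2.03-fold higher (exact 95% interval 1.57 to 2.59), SATB1 1.65-fold (1.11 to 2.38) and TCF7 1.56-fold (1.06 to 2.24). These 3 of 7 measured members were called higher, against 14.4% of 6612 measured genes, and 0 were called lower, against 28.4%. IL7R, at 1.35-fold (1.17 to 1.56), missed the threshold with its interval above 1. FOXP1 at 1.31-fold (0.723 to 2.21), LTB at 1.01-fold (0.860 to 1.18) and CD28 at 0.939-fold (0.292 to 2.34) had intervals that include 1. The median log2 ratio of the members was 0.44, beside -0.00 over all measured genes.

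Both transplant libraries were then set against Post-IS. In 4 wpt T cells LEF1 was 2.0-fold lower than in Post-IS T cells (ratio 0.499, 0.396 to 0.637), TCF7 1.54-fold lower (0.649, 0.460 to 0.942) and SATB1 1.5-fold lower (0.666, 0.471 to 0.973), the last just inside the threshold. Called lower were 3 of 8 measured members, against 14.4% of 8436 genes, and called higher was CD28 alone, against 32.7%. The CD28 ratio of 1.69 rests on 5 Post-IS UMIs and its interval, 0.713 to 5.28, includes 1. The members' median log2 ratio was -0.51, against 0.02 over all genes.

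In 8 wpt T cells more members were lower than in Post-IS T cells. LEF1 was 2.27-fold lower (ratio 0.441, 0.347 to 0.565), TCF7 2.01-fold (0.498, 0.349 to 0.730), FOXP1 1.82-fold (0.551, 0.327 to 0.991), SATB1 1.76-fold (0.569, 0.399 to 0.838) and IL7R 1.73-fold (0.579, 0.503 to 0.669). Called lower were 5 of 7 measured members, against 14.6% of 7806 genes, and called higher 0, against 32.6%. LTB, at 0.849 (0.728 to 0.995), and CD28, at 1.08 (0.445 to 3.41), stayed within the threshold. The median log2 ratio was -0.83, beside 0.05 over all genes. These comparisons all use the 1 Post-IS library, so they are not separate observations of it.

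Against Pre-IS, most members in the transplant libraries stayed within the threshold. In 4 wpt T cells LEF1, TCF7 and IL7R stood at ratios of 1.01 (0.894 to 1.15), 1.01 (0.859 to 1.19) and 0.987 (0.928 to 1.05) to Pre-IS T cells. LTB, at 0.843 (0.795 to 0.895), had an interval below 1 within the threshold. CD28, at 1.59-fold (1.16 to 2.22), was the member called higher among 8 measured, against 13.3% of 8903 genes, and 0 were called lower, against 7.15%. The CD28 value of 0.66 on the log2 scale was 1.01 in 1 random draw of 1000 UMIs per T cell and -0.15 in 1 random draw of 500. The share of T cells expected to hold CD28 at 500 UMIs, which rests on no draw, was 2.88% in 4 wpt and 1.86% in Pre-IS. A share of 1 in 8 is close to that background. The median log2 ratio of the members was 0.01 and of all genes 0.04.

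In 8 wpt T cells 6 members with ample counts lay slightly below Pre-IS T cells, with intervals below 1 for IL7R (0.782, 0.731 to 0.837), LTB (0.857, 0.804 to 0.913), TCF7 (0.776, 0.646 to 0.933) and FOXP1 (0.720, 0.558 to 0.930). For LEF1 (0.893, 0.781 to 1.02) and SATB1 (0.937, 0.780 to 1.13) the intervals include 1. CD28 was not lower, at 1.015 (0.707 to 1.47) on 84 UMIs in 8 wpt and 50 in Pre-IS. BACH2 was the 1 of 8 measured members called lower, 2.69-fold on 8 and 13 UMIs (ratio 0.372, 0.134 to 0.968), against 5.52% of 8495 genes, and 0 were called higher, against 9.08%. The median log2 ratio was -0.29, beside 0.04 over all genes.

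Between the transplant libraries, 8 wpt was the lower for most members. FOXP1 was 1.67-fold lower in 8 wpt than in 4 wpt T cells (ratio 0.598, 0.486 to 0.733), CD28 1.57-fold lower (0.638, 0.487 to 0.829) and BACH2 1.94-fold lower, on 8 and 22 UMIs (0.516, 0.199 to 1.20). These are 3 of 8 measured members called lower, against 8.53% of 9142 genes, with 0 higher, against 6.84%. TCF7 (0.768, 0.660 to 0.892), IL7R (0.793, 0.750 to 0.839), SATB1 (0.854, 0.738 to 0.988) and LEF1 (0.883, 0.791 to 0.984) had intervals below 1 within the threshold, and LTB (1.02, 0.963 to 1.07) did not. The median log2 ratio was -0.36, beside 0.00 over all genes.

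**Figure D2:**
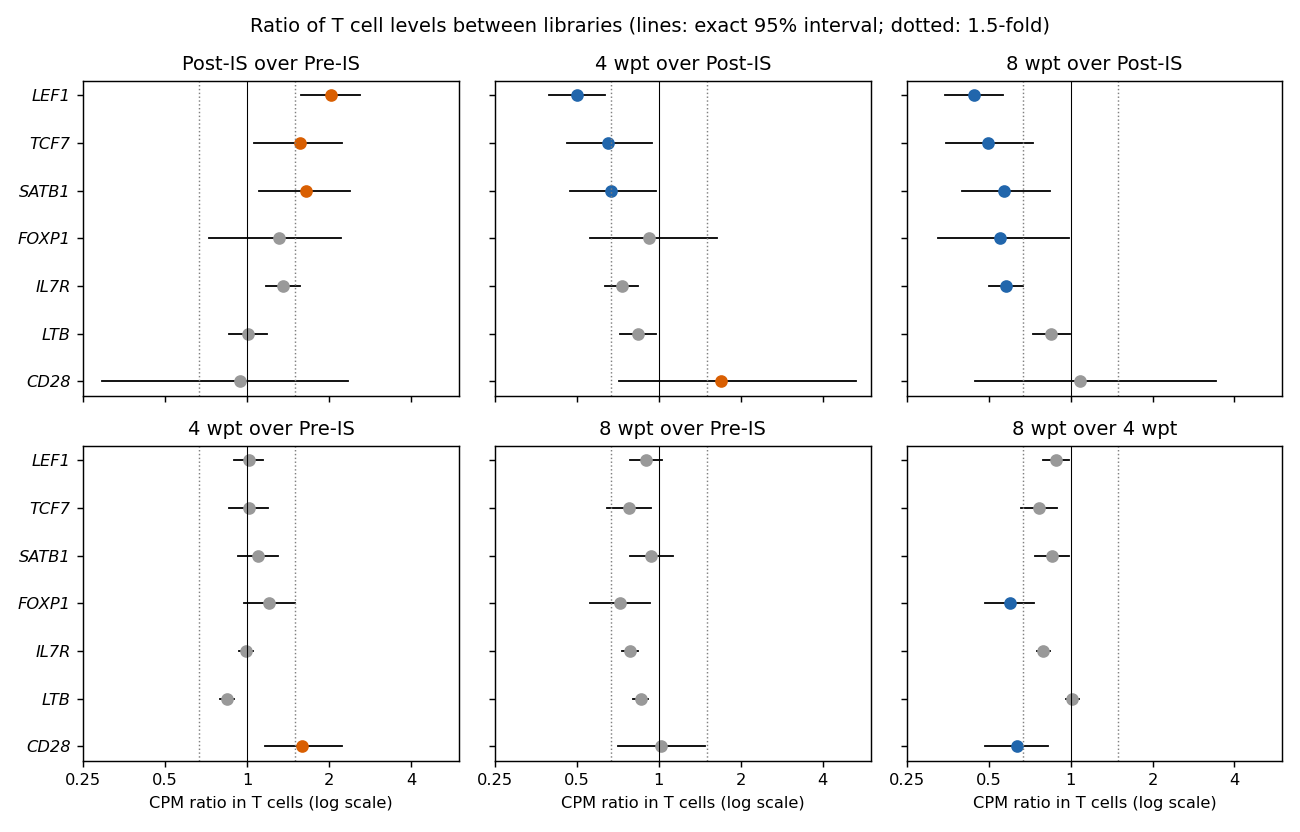
Ratio of CPM in T cells between libraries for the 7 members with most UMIs, in the 6 comparisons, on a log2 axis; points are ratios, coloured orange at 1.5-fold higher or more, blue at 1.5-fold lower or more and grey between, and lines are exact 95% intervals. LEF1 lies at 2.03 for Post-IS over Pre-IS and at 0.499 and 0.441 for 4 wpt and 8 wpt over Post-IS, while 4 wpt over Pre-IS clusters around 1 except CD28 at 1.59.

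The share of T cells with a UMI of a gene depends on depth, and the library that came first changed once cells were set to 1 depth. LEF1 was detected in 29.0% of Pre-IS, 41.7% of Post-IS, 45.1% of 4 wpt and 27.2% of 8 wpt T cells. With every cell thinned to 1000 UMIs the expected shares were 20.5%, 39.9%, 21.5% and 16.8%, and Post-IS came first in place of 4 wpt. Thinning left out 88, 30, 35 and 52 T cells under 1000 UMIs.

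IL7R was detected in 57.1%, 70.4%, 74.8% and 53.3% of T cells in Pre-IS, Post-IS, 4 wpt and 8 wpt, and in 49.7%, 65.9%, 55.0% and 42.1% after thinning. The same exchange of first place was seen for TCF7 and LTB. TCF7 was detected in 19.5%, 24.3%, 35.3% and 17.6%, and in 13.5%, 21.3%, 13.5% and 9.90% after thinning. LTB was detected in 64.6%, 69.6%, 82.1% and 60.2%, and in 56.3%, 68.6%, 57.3% and 49.0% after thinning. In CPM, by contrast, LTB in Post-IS and Pre-IS lay within 1.01-fold of each other. SATB1 (18.8% in Post-IS) and FOXP1 (10.6%) also led there after thinning, and CD28 alone kept 4 wpt in front, at 5.38% against 3.25%, 4.06% and 3.28% in Pre-IS, Post-IS and 8 wpt. As a measure of free RNA, LEF1 was detected in 0% to 0.867% of CD14+ monocytes at median depths of 1196 to 3190 UMIs, and IL7R in 0.608% to 2.31% of them.

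Counted per cell, T cells with no UMI of any member made up 21.9% of Pre-IS, 7.83% of Post-IS, 7.09% of 4 wpt and 25.8% of 8 wpt T cells. At 1000 UMIs per cell the expected shares were 24.6%, 3.96%, 16.5% and 31.3%, lowest in Post-IS and highest in 8 wpt. The mean number of members detected per thinned cell ran the other way, at 1.64, 2.30, 1.77 and 1.38. In the 3 larger libraries, cells with LEF1 held TCF7 more often than cells without it. At 1000 UMIs, TCF7 was expected in 22.1% of LEF1-positive and 11.3% of LEF1-negative T cells in Pre-IS, in 19.2% of LEF1-positive and 12.0% of LEF1-negative cells in 4 wpt, and in 17.6% of LEF1-positive and 8.33% of LEF1-negative cells in 8 wpt. In Post-IS these shares were close, at 22.6% of LEF1-positive and 20.5% of LEF1-negative cells, on about 34 expected LEF1-positive cells.

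**Figure D3:**
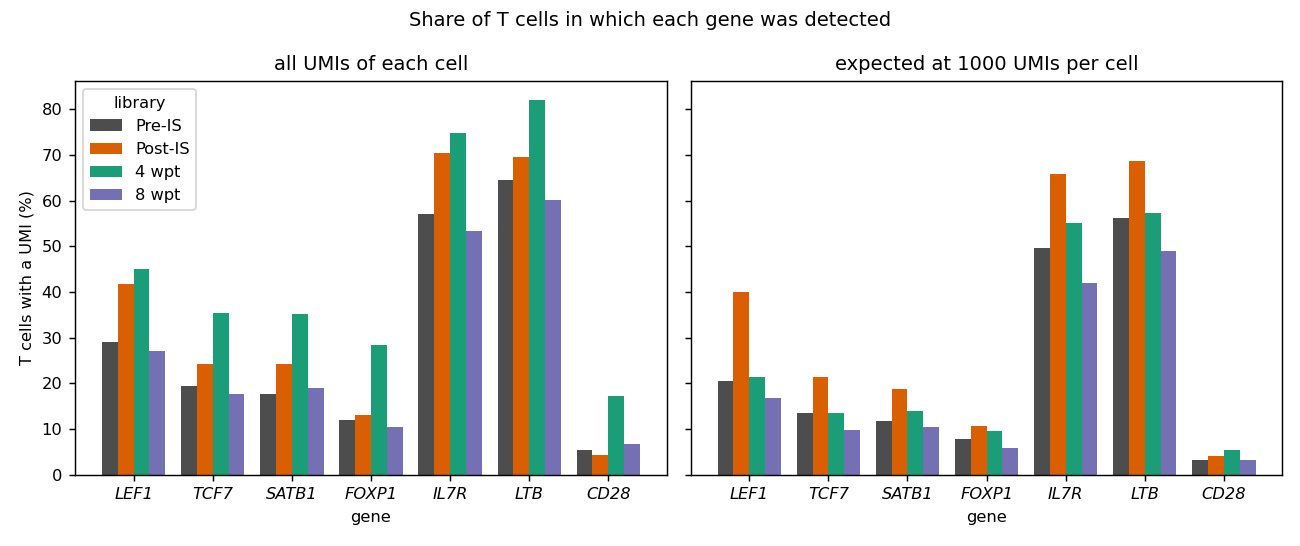
Percent of T cells with a UMI of each of 7 members in the 4 libraries, on the left from all UMIs of each cell and on the right the share calculated for each cell thinned to 1000 UMIs. On the left 4 wpt is highest for all 7 genes, and on the right Post-IS is highest for all but CD28, for example 39.9% against 16.8% to 21.5% for LEF1.

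T cells that held effector RNA had lower levels of these genes. T cells were split by whether they held a UMI of GZMB, NKG7, GNLY, PRF1 or CCL5, genes of granule killing and of a chemokine. Cells with such a UMI made up 47.8% of Pre-IS, 20.9% of Post-IS, 45.8% of 4 wpt and 55.7% of 8 wpt T cells, and 42.8%, 16.5%, 36.4% and 51.7% after thinning to 1000 UMIs. The order of these shares over libraries is the reverse of the order of LEF1 and IL7R CPM at its ends, with Post-IS lowest and 8 wpt highest.

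LEF1 stood at 77.9 CPM in Pre-IS T cells with an effector UMI and 421 CPM in those without, a 5.41-fold lower level (3.96 to 7.54). In Post-IS it stood at 217 CPM with and 646 CPM without, 2.97-fold lower (1.37 to 7.66). In 4 wpt it stood at 110.2 CPM with and 408 CPM without, 3.70-fold lower (3.11 to 4.43), and in 8 wpt at 81.0 CPM with and 409 CPM without, 5.05-fold lower (4.03 to 6.39). The intervals of the cells with and without an effector UMI did not overlap in any of the 4 libraries.

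TCF7 was lower with an effector UMI in 3 libraries, 2.95-fold in Pre-IS, 2.33-fold in 4 wpt and 4.26-fold in 8 wpt, and LTB likewise, 2.43-fold, 1.83-fold and 3.13-fold. IL7R showed its smallest gap in 4 wpt, with 1002 CPM with an effector UMI and 1184 CPM without, 1.18-fold lower (1.10 to 1.27). In Pre-IS it was 2.10-fold lower and in 8 wpt 2.04-fold lower. SATB1 was 2.18-fold, 1.67-fold and 2.02-fold lower, FOXP1 2.66-fold, 1.97-fold and 2.70-fold, and CD28 3.54-fold, 2.01-fold and 5.65-fold, in Pre-IS, 4 wpt and 8 wpt. Every one of these intervals lay below 1 as a ratio.

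In Post-IS fewer members differed. IL7R stood at 1613 CPM in the 24 T cells with an effector UMI and 1480 CPM in the 91 without, a ratio of 1.09 (0.782 to 1.5). LTB stood at 1396 CPM with and 1184 CPM without, a ratio of 1.18 (0.821 to 1.67), and TCF7 at 248 CPM with and 242 CPM without, 1.02 (0.402 to 2.32). Of the 7 members with most UMIs, LEF1 was the one whose interval did not include 1 there, and 24 cells leave wide intervals.

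Within T cells that held none of the 5 effector genes, Post-IS over Pre-IS ratios of LEF1, TCF7, SATB1, IL7R and FOXP1 were nearer 1 than in all T cells, and those of LTB and CD28 farther from 1. LEF1 was 1.53-fold higher in Post-IS than in Pre-IS (1.17 to 1.98), and stood at 0.969 (0.848 to 1.11) and 0.971 (0.839 to 1.12) in 4 wpt and 8 wpt over Pre-IS. SATB1, at 1.43 Post-IS over Pre-IS (0.930 to 2.13), TCF7, at 1.10 (0.705 to 1.66), IL7R, at 1.02 (0.861 to 1.2), and FOXP1, at 0.995 (0.510 to 1.79), had intervals that include 1. LTB was 1.39-fold lower in Post-IS (ratio 0.720, 0.597 to 0.863), and CD28 stood at 0.498 (0.0987 to 1.56). Some ratios between the other libraries were also farther from 1 than in all T cells. In 4 wpt over Pre-IS, IL7R stood at 0.816 (0.759 to 0.879) and LTB at 0.786 (0.733 to 0.843), and in 8 wpt over 4 wpt LTB stood at 1.24 (1.16 to 1.32). The members' median log2 ratio Post-IS over Pre-IS in these cells was 0.04. Holding no effector UMI depends on depth, and the ratios above come from unthinned cells. Unthinned, LEF1 stood at 421 CPM in Pre-IS, 646 in Post-IS, 408 in 4 wpt and 409 in 8 wpt. With cells thinned to 1000 UMIs ahead of the split, LEF1 stood at 426.9 CPM in Pre-IS and 746.5 in Post-IS. In 4 wpt it stood at 366.5 CPM and in 8 wpt at 409.6 CPM. These thinned values rest on 1 random draw, with 71 cells in Post-IS. The share of effector-bearing cells was lowest in Post-IS and highest in 8 wpt. LEF1, TCF7, SATB1 and IL7R over all T cells were highest in Post-IS and lowest in 8 wpt. LTB, lowest in 4 wpt, and CD28, lowest in Post-IS, did not have this order. The part that the share of effector-bearing cells takes in the differences over all T cells was not tested.

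**Figure D4:**
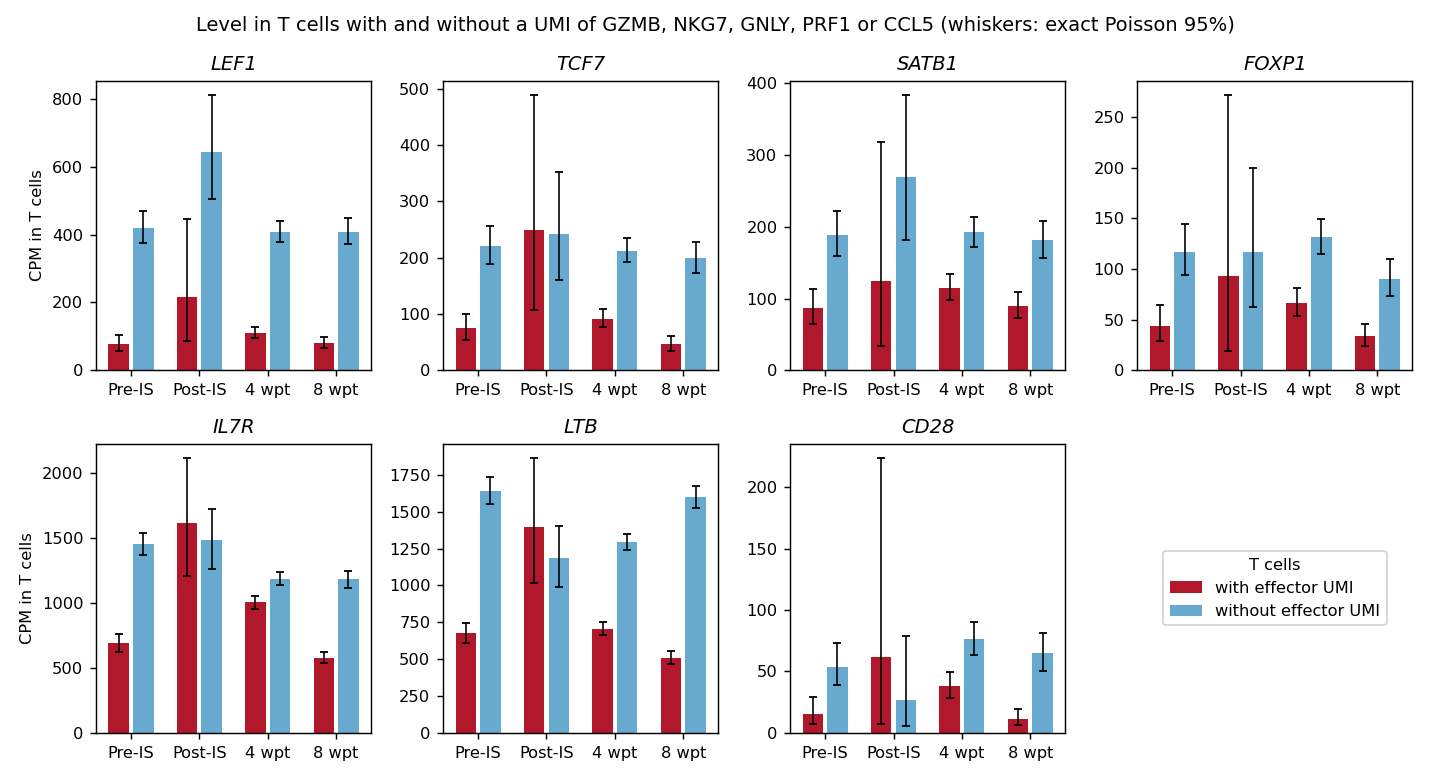
CPM of 7 members in T cells with (red, left) and without (blue, right) a UMI of GZMB, NKG7, GNLY, PRF1 or CCL5, by library, on linear axes from 0; whiskers are exact Poisson 95% intervals. LEF1 is lower in the cells with an effector UMI in all 4 libraries, for example 81.0 against 409 CPM in 8 wpt, while IL7R, LTB and TCF7 intervals overlap in Post-IS.

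T cells were also split by their coreceptor, with a CD8A or CD8B UMI and no CD4 UMI, or the reverse. LEF1 stood at 124 CPM in CD8 and 349.8 CPM in CD4 cells of Pre-IS, 135 CPM in CD8 and 341 CPM in CD4 cells of 4 wpt, and 156 CPM in CD8 and 324 CPM in CD4 cells of 8 wpt, so it was 2.83-fold, 2.53-fold and 2.08-fold lower in CD8 cells. CD28 was 3.79-fold lower in CD8 cells of Pre-IS (1.12 to 16.3, on 4 CD8 and 11 CD4 cell UMIs), 4.0-fold in 4 wpt (2.52 to 6.58) and 4.65-fold in 8 wpt (1.99 to 12.1), with intervals that overlap those of LEF1. LTB was 2.60-fold, 1.92-fold and 2.68-fold lower, and IL7R 2.35-fold, 1.33-fold and 2.52-fold lower.

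TCF7 and FOXP1 showed this difference in some libraries. TCF7 was at CD8 over CD4 ratios of 0.426 (0.262 to 0.682) in Pre-IS, 0.638 (0.494 to 0.821) in 4 wpt and 0.679 (0.451 to 1.03) in 8 wpt. FOXP1 was at 0.570 (0.311 to 1.03) in Pre-IS, 0.582 (0.422 to 0.800) in 4 wpt and 1.18 (0.617 to 2.37) in 8 wpt, where the Pre-IS and 8 wpt intervals include 1.

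For SATB1 no difference was detectable in any of the 3 libraries. It stood at 162 CPM in CD8 and 109 CPM in CD4 cells of Pre-IS (ratio 1.48, 0.900 to 2.49), at 148 CPM in CD8 and 136 CPM in CD4 cells of 4 wpt (1.09, 0.849 to 1.39) and at 113 CPM in CD8 and 142 CPM in CD4 cells of 8 wpt (0.796, 0.542 to 1.18). All 3 intervals include 1, and those of Pre-IS and 4 wpt lie above the LEF1 intervals in the same libraries. Post-IS held 14 CD8 and 12 CD4 cells by this rule, and its LEF1 ratio of 0.605 (0.243 to 1.44) is not detectably different from 1. Cells with neither coreceptor detected were left out of the split. They made up 60.2% of Pre-IS, 77.4% of Post-IS, 43.5% of 4 wpt and 59.5% of 8 wpt T cells.

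Across the other cell labels, LEF1, TCF7, IL7R and CD28 were T cell genes. In labels with at least 50 cells, LEF1 reached at most 29.8 CPM, in Pre-IS NK cells, and T cells were 9.10-fold to 26.2-fold above NK cells over 3 libraries. IL7R in NK cells ranged from 66.1 to 126 CPM, 8.86-fold to 13.2-fold below T cells, and TCF7 from 20.9 to 41.0 CPM, 3.85-fold to 5.80-fold below. CD28 had 0 UMIs in NK and B cells of all 3 libraries that held at least 50 of them. Against a floor of 3 counts, T cells were at least 5.39-fold higher than NK cells in Pre-IS, at least 20.6-fold in 4 wpt and at least 15-fold in 8 wpt.

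T cells over NK cells, 6 of 7 measured members were called higher in Pre-IS, against 16.7% of 7112 genes, 6 of 8 in 4 wpt, against 15.1%, and 6 of 7 in 8 wpt, against 13.2%, with 0 lower each time, against 16.9%, 15.4% and 14.5%. A UMI of a T cell marker was found in 47.1% to 65.2% of NK cells, and its part in these ratios was not tested. The measured members not called were FOXP1 in each of these libraries and SATB1 in 4 wpt. SATB1 stood there at 158 CPM in T cells and 117 CPM in NK cells, a ratio of 1.35 (1.10 to 1.65). Its ratios were 2.85 (1.83 to 4.65) in Pre-IS and 1.66 (1.32 to 2.11) in 8 wpt. BACH2 was among the 6 called in 4 wpt, at 3.64 (0.895 to 31.9) on 22 T cell and 2 NK cell UMIs. That interval includes 1. For FOXP1 the ratios were 1.43 (0.928 to 2.28), 1.49 (1.15 to 1.96) and 0.977 (0.732 to 1.31) in Pre-IS, 4 wpt and 8 wpt.

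LTB and FOXP1 were lower in T cells than in naive B cells, in the Pre-IS and 8 wpt libraries that held enough naive B cells. LTB stood at 1220 CPM in T cells and 1809 CPM in naive B cells of Pre-IS, and at 1046 CPM in T cells and 1588 CPM in naive B cells of 8 wpt, ratios of 0.674 (0.595 to 0.767) and 0.658 (0.582 to 0.748). The other B cells held less LTB than T cells, from 513 to 582 CPM. BACH2, which mice need for germinal centre B cells, stood at 9.63 CPM in T cells and 18.9 CPM in naive B cells of Pre-IS, a ratio of 0.509 (0.140 to 2.79) on 3 naive B cell UMIs, with an interval that includes 1. In 8 wpt it stood at 3.58 CPM in T cells and 22.6 CPM in naive B cells, 0.158 (0.0424 to 0.719) on 4 naive B cell UMIs. BACH2 was under the minimum of 20 UMIs in both of these comparisons.

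FOXP1 was highest in MS4A7+ monocytes and naive B cells. MS4A7+ monocytes ranged from 165 to 254 CPM over the 4 libraries, and T cells stood at 0.426 (0.263 to 0.724), 0.438 (0.227 to 0.813), 0.493 (0.393 to 0.625) and 0.372 (0.240 to 0.601) of them in Pre-IS, Post-IS, 4 wpt and 8 wpt. T cells were lower in all 4 libraries, and in naive B cells FOXP1 stood at 177 CPM in Pre-IS and 175 CPM in 8 wpt, also above T cells. CD14+ monocytes held 42.3 to 56.1 CPM of FOXP1, below T cells in 3 of 4 libraries beyond counting error. LTB was also present in MS4A7+ monocytes, at 178 to 330 CPM, and close to absent in CD14+ monocytes, at 17.8 to 26.0 CPM.

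**Figure D5:**
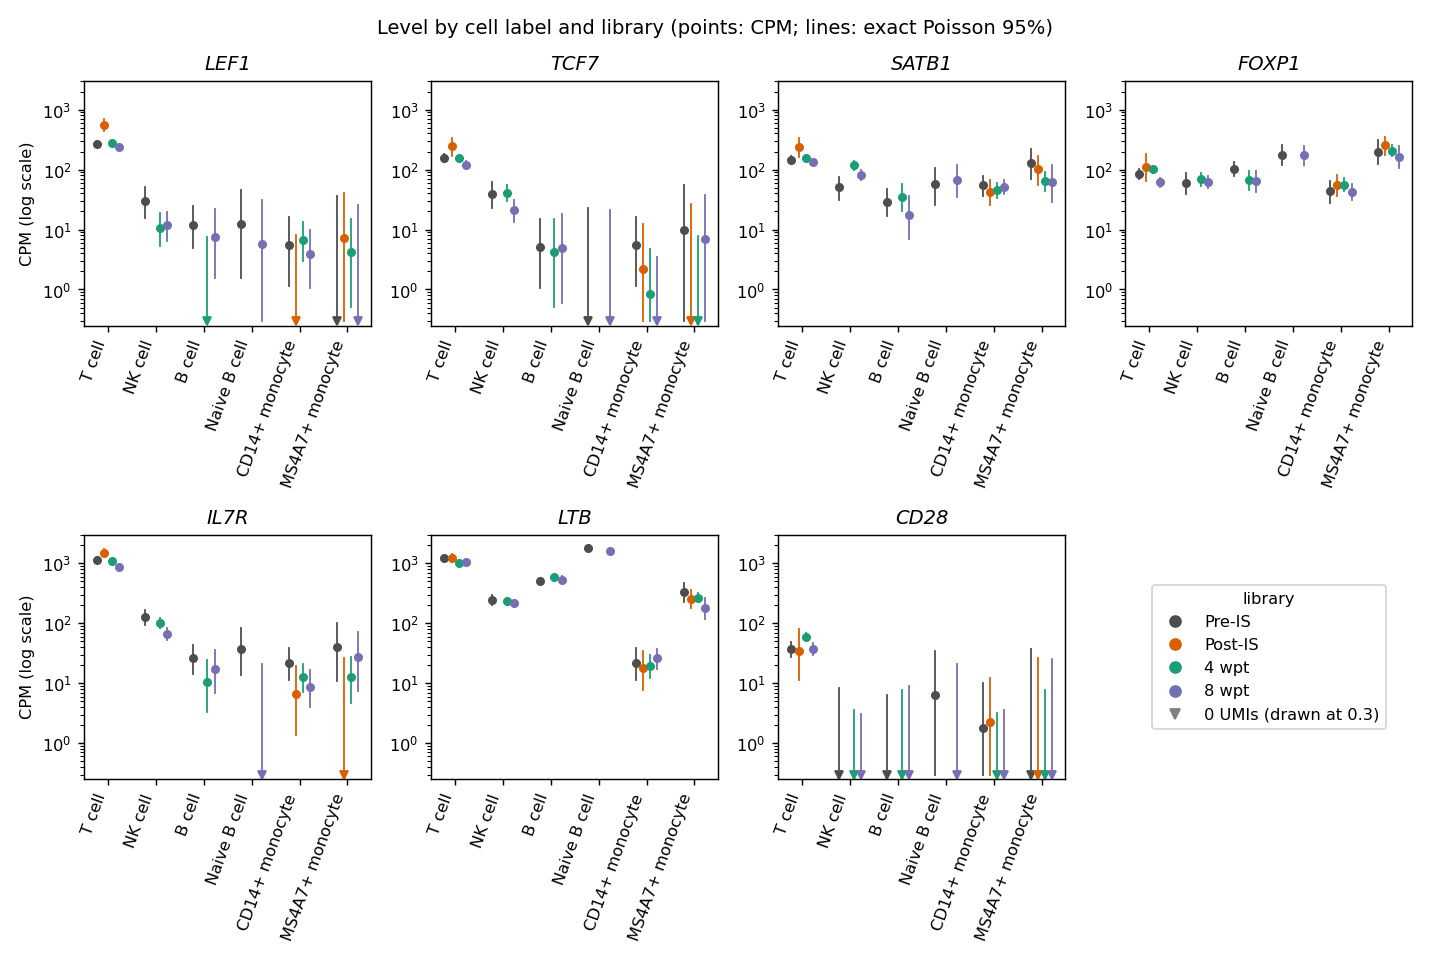
CPM of 7 members in T cells (left) and 5 other labels, on a log axis shared by the panels; points are CPM coloured by library, lines exact Poisson 95% intervals, and triangles labels with 0 UMIs, drawn at 0.3 CPM. LEF1, TCF7, IL7R and CD28 are highest in T cells, whereas FOXP1 peaks in naive B cells and MS4A7+ monocytes and LTB in naive B cells, at 1588 to 1809 CPM.

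Outside T cells the members were followed over time in both monocyte labels and in NK cells, which numbered under 50 in Post-IS. SATB1 stood at 117 CPM in 4 wpt and 50.4 CPM in Pre-IS NK cells, 2.32-fold higher (1.47 to 3.85), and at 81.2 CPM in 8 wpt, 1.61-fold higher than Pre-IS (ratio interval 1.005 to 2.69). In T cells of the same libraries SATB1 stood at ratios of 1.10 and 0.937 to Pre-IS. LEF1 was lower than in Pre-IS NK cells, at 0.352 (0.143 to 0.851) in 4 wpt and 0.393 (0.171 to 0.908) in 8 wpt, on 11 and 14 UMIs against 13. IL7R was 1.91-fold lower in 8 wpt than in Pre-IS NK cells, at 66.1 CPM in 8 wpt and 126 CPM in Pre-IS (ratio 0.524, 0.367 to 0.754). These UMIs lay in few cells, 26 of 659 in 8 wpt and 19 of 257 in Pre-IS, with up to 10 and 7 in a cell. The shares of NK cells with IL7R, 3.95% (2.59 to 5.73) and 7.39% (4.51 to 11.3), had intervals that overlap.

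In NK cells, 4 wpt over Pre-IS, 1 of 6 measured members was called higher, against 17.5% of genes, and 1 lower, against 9.31%. In 8 wpt over Pre-IS, 1 was higher, against 15.4%, and 3 were lower, LEF1, TCF7 and IL7R, against 6.89%, the TCF7 ratio of 0.537 having an interval (0.279 to 1.06) that includes 1. In CD14+ monocytes, SATB1 ranged from 42.4 to 54.7 CPM and FOXP1 from 42.3 to 56.1 CPM, and the interval of every ratio between libraries included 1. The difference between T cells and monocytes in the Post-IS step was not tested.

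Among the other genes of this program, calls were made in both directions Post-IS over Pre-IS. Of 18 further naive and memory genes with a row, 14 were measured Post-IS over Pre-IS. KLF2, a factor that drives S1PR1, was 1.7-fold higher, at 793 CPM in Post-IS and 465 CPM in Pre-IS (1.38 to 2.08). SERINC5 was also called higher, and FOXO1 and PASK lower, each on 1 to 4 Post-IS UMIs with an interval that includes 1. The median log2 ratio of this list was 0.25, beside -0.00 over all measured genes. CCR7, the chemokine receptor for lymph node entry, stood at 452 CPM in Post-IS and 364 CPM in Pre-IS, a ratio of 1.24 (0.943 to 1.61), and LDHB, a lactate dehydrogenase subunit, at 299 CPM in Post-IS and 240.0 CPM in Pre-IS, 1.25 (0.885 to 1.72).

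In 4 wpt over Pre-IS none of these 14 was called, against 13.3% of all measured genes called higher and 7.15% lower. KLF2 in 4 wpt was near its Pre-IS level, at 478 CPM in 4 wpt and 465 CPM in Pre-IS, a ratio of 1.03 (0.936 to 1.13). In 8 wpt it was higher than in Pre-IS, at 686 CPM in 8 wpt and 465 CPM in Pre-IS, a ratio of 1.47 (1.34 to 1.62). CCR7, at 306 CPM in 8 wpt and 364 CPM in Pre-IS, was lower at a ratio of 0.840 (0.747 to 0.945).

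Of 10 genes of interleukin-7 receptor signalling, 9 were measured Post-IS over Pre-IS. BCL2, which keeps resting T cells alive downstream of the receptor, was 3.42-fold higher, at 111 CPM in Post-IS and 32.6 CPM in Pre-IS (1.80 to 6.17). STAT5A, a transducer of the receptor's signal, stood at 13.9 CPM in Post-IS and 56.3 CPM in Pre-IS, a ratio of 0.247 (0.0294 to 0.924) on 2 Post-IS UMIs. IL2RG, the common gamma chain that pairs with IL7R, stood at 471 CPM in Pre-IS, 508 in Post-IS, 419 in 4 wpt and 488 in 8 wpt. JAK1 and MCL1 ranged from 254 to 291 and from 243 to 348 CPM, and CISH, a feedback inhibitor, from 118 to 182 CPM. The list median was 0.12. BCL2, STAT5A, SERINC5, FOXO1 and PASK were named after their values were seen.

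Of 15 ligands and adaptors of CD27, CD28 and lymphotoxin, 10 were measured Post-IS over Pre-IS. PIK3R1, the regulatory subunit of a kinase that CD28 recruits, stood at 125 CPM in Post-IS and 77.0 CPM in Pre-IS, a ratio of 1.63 (0.927 to 2.70). The 4 genes called lower, against 28.4% of all measured genes, held 0 to 3 Post-IS UMIs each. LCK, the kinase that the coreceptors bring to the T cell receptor, stood at 404 CPM in Post-IS and 533 CPM in Pre-IS, a ratio of 0.758 (0.570 to 0.991). GRB2, an adaptor bound by CD28, ranged from 97.4 to 119 CPM. The list median was -0.26.

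Of 9 partners of LEF1 and TCF7 with a row, 5 were measured. CTNNB1, which encodes beta-catenin, stood at 111 CPM in Post-IS and 74.1 CPM in Pre-IS, a ratio of 1.5 (0.827 to 2.56), and GSK3B, the kinase that marks it for degradation, at 55.7 CPM in Post-IS and 33.3 CPM in Pre-IS, 1.67 (0.680 to 3.58). APC, which takes part in that degradation, stood at 13.9 CPM in Post-IS and 28.1 CPM in Pre-IS, 0.494 (0.0578 to 1.91) on 2 Post-IS UMIs, and it and TLE4 were the 2 called lower. MYC ranged from 75.6 to 90.5 CPM. CTNNB1 and GSK3B were the 2 called higher. Of all measured genes, 14.4% were called higher and 28.4% lower. The 3 intervals given here all include 1. The list median was 0.31.

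Of the partners of the surface members, CD86 and LTBR were found mainly in other labels, and CD80 in T cells as well. CD86, a ligand of CD28, stood at 109 to 160 CPM in B cells and 84.7 to 102 CPM in CD14+ monocytes, and at most at 3.70 CPM in T cells. CD80, the other ligand of CD28, stood at 19.8 to 41.5 CPM in B cells, and in T cells at 11.9 CPM in Pre-IS, 10.1 in 4 wpt and 13.4 in 8 wpt, with 0 UMIs in Post-IS. In CD14+ monocytes it reached at most 3.85 CPM. IL7, the ligand of IL7R, stood at 6.96 to 15.7 CPM in T cells and 24.2 to 37.3 CPM in B cells. LTBR, the receptor of lymphotoxin, stood at 95.3 to 142 CPM in CD14+ monocytes and 43.5 to 120 CPM in MS4A7+ monocytes, with 0 or 1 UMI in every T, NK, B and naive B cell sum. In CD14+ monocytes LTBR was highest in Pre-IS, at 142 CPM (112 to 178), and stood at 95.8 in Post-IS, 109 in 4 wpt and 95.3 in 8 wpt, with intervals that overlapped.

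The effector genes went the other way from LEF1. Of 17 measured Post-IS over Pre-IS, 0 were called higher, against 14.4% of all measured genes, and 12 lower, against 28.4%, with a list median of -1.21. In 4 wpt over Post-IS 12 of 18 were called higher, against 32.7%, and in 8 wpt over Post-IS 15 of 18, against 32.6%. NKG7, a granule protein, stood at 397 CPM in Post-IS and 1024 CPM in Pre-IS, and GNLY, a pore-forming granule protein, at 863 CPM in Post-IS and 1124 CPM in Pre-IS. GZMB stood at 369 CPM in Post-IS and 1865 CPM in Pre-IS, and CCL5 at 216 CPM in Post-IS and 462 CPM in Pre-IS. In 4 wpt over Pre-IS, 0 of 18 were higher, against 13.3%, and 5 lower, against 7.15%. In 8 wpt over Pre-IS 1 of 18 was higher, against 9.08%, and 0 were lower, against 5.52%. Several of these genes also define the split of T cells above.

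Other RNA under the T cell label differed between libraries too. Summed NK markers, 8 genes of which NCAM1 was at 0 in all 4 libraries and FCGR3 in Post-IS, stood at 1133 CPM in Pre-IS, 501 in Post-IS, 678 in 4 wpt and 1131 in 8 wpt. Summed over 6 B cell markers, with PAX5 at 0 throughout, the values were 31.9, 104, 21.8 and 26.0 CPM, and over 8 monocyte markers 44.5, 146, 55.5 and 77.0 CPM, with CSF1R at 0 in the first 3. Those sums were 27151 to 28732 CPM in the monocytes themselves, and 3236 to 7170 CPM for the B markers in B cells. As an alternative, T cells with 2 or more UMIs of B cell, monocyte or platelet markers were left out, which were 8, 4, 47 and 29 cells. NK markers were not part of this filter, so T cells that held them stayed in. Leaving out these cells gave a median of 0.50 and 2 called members Post-IS over Pre-IS, and 3 called members for 4 wpt over Post-IS. These counts of called members join higher and lower calls. The other counts of called members were as given above, and the other medians lay within 0.02 of theirs.

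Over the 20 pairs of label and library with at least 50 cells, each member was matched by Pearson's r of log2(CPM + 10) to genes with a mean of at least 20 CPM. These points share libraries and depths, so r is a description. LEF1 was most like CA6 (0.98), TRAC (0.97) and TNFRSF25 (0.97), TCF7 most like IL7R (0.98), CAMK4 (0.97) and INPP4B (0.97), and IL7R most like TCF7 (0.98), CD3D (0.97) and CD3E (0.97). LTB was most like ARHGEF18 (0.92), DDX6 (0.92) and CYFIP2 (0.89), FOXP1 most like ARHGAP15 (0.90), CD55 (0.90) and SCAF4 (0.85), and SATB1 most like FLT3LG (0.81), FYN (0.79) and MFSD10 (0.79). Among the members, r was 0.92 to 0.98 between LEF1, TCF7 and IL7R, 0.69 to 0.73 of those with SATB1, and -0.08 to -0.17 of those with FOXP1. BACH2, CD28 and MAL were too low for this comparison.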

How the data were processed

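Peripheral blood mononuclear cells of rhesus macaque were profiled by droplet 5' single-cell RNA sequencing in 4 libraries, 1 per group. The authors deposited raw UMI counts per gene and cell with no normalization, and a table that gives each cell its library and 1 of 9 cell labels. The Mmul_10 build, Seurat 3.2.3 and Cell Ranger 3.1.0 are listed in the submitters' processing notes. The filters on cells and the treatment of doublets are not given in the sources used here, and no doublet caller was run on the files. Identifiers stood for symbols in 2559 gene rows, and 400 of these could be named from a reference table.

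For each label and library, UMIs were added up over cells and given as CPM with exact Poisson 95% intervals. Ratios have exact conditional binomial 95% intervals. Log2 ratios used an offset of 0.5 UMIs. Labels were compared where a library held at least 50 cells, which left 6 labels. Shares of cells with a UMI were also calculated for cells thinned to 1000 or 500 UMIs. The ratio and thinning steps were tested on simulated data. With 1 library per group no p-value was computed.

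The text names the 10 members, in each related list the up to 4 genes with most T cell UMIs, and the 3 genes most like each member, and says where others are named. Some genes that this rule names are not reported here. The members and lists were chosen with earlier results of these data known.

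The alternatives were TMM scaling (edgeR 4.0.16) and size factors (DESeq2 1.42.0), both used for scaling alone, equal weight for each cell, totals without ribosomal protein genes, thinning, and other offsets, minimums and folds. Further alternatives left out T cells with effector UMIs, with B cell, monocyte or platelet markers, or with few UMIs. Python 3.11.15, numpy 2.4.6, pandas 2.3.3, scipy 1.17.1, matplotlib 3.10.9 and R 4.3.3 were used.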

Additional observations from a re-analysis of the deposited data

How the results depend on the processing

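Each group is 1 library, so no library could be left out, and the T cells of Post-IS, 115 in number, limit every comparison with it. No paired analysis was possible because each group holds 1 library. Over the alternatives, 74 of 78 medians and 56 of 78 counts of called members stayed close to the values of the report. A count was close if within 1.5 times. A median was close if it lay between the medians of the members' lower and upper interval bounds. These intervals are wide, most of all against Post-IS, so a median called close can still differ clearly in size. Scaling by TMM or by size factors changed no median or count beyond these limits. In T cells without effector UMIs, the median log2 ratio was 0.04 in place of 0.44 for Post-IS over Pre-IS, -0.06 in place of -0.29 for 8 wpt over Pre-IS, and -0.09 in place of -0.36 for 8 wpt over 4 wpt. The called members there were 2 in place of 4 for 4 wpt over Post-IS, 2 in place of 5 for 8 wpt over Post-IS, 0 in place of 1 for 8 wpt over Pre-IS and 1 in place of 3 for 8 wpt over 4 wpt. All counts of called members in this section join higher and lower calls. In both comparisons with Post-IS, LEF1 was lower (0.632 in 4 wpt, 0.633 in 8 wpt) and CD28 higher (2.83 and 2.40). In Post-IS over Pre-IS, LEF1 was called higher, at 1.53, and CD28 lower, at 0.498. All 3 CD28 ratios rest on 3 Post-IS UMIs, and their intervals include 1. The same cells thinned to 1000 UMIs, an alternative chosen after seeing the data, gave 2 for 8 wpt over Post-IS, 0 for 8 wpt over Pre-IS and 1 for 8 wpt over 4 wpt, and there the median of all genes for 8 wpt over Post-IS was -0.13. With each cell weighted equally, the median for 8 wpt over 4 wpt was -0.52, and the counts were 2 for 4 wpt over Post-IS and 0 for 8 wpt over Pre-IS. Without T cells under 1000 UMIs the count was 2 for 4 wpt over Post-IS. With cells thinned to 1000 UMIs it was 0 for 8 wpt over Pre-IS, and thinned to 500 UMIs it was 0 for 4 wpt over Pre-IS, 0 for 8 wpt over Pre-IS and 1 for 8 wpt over 4 wpt. With no minimum of UMIs it was 2 for each later library over Pre-IS, and with a minimum of 50 UMIs 0 for 8 wpt over Pre-IS. By construction a fold of 2 left fewer, 1 for Post-IS over Pre-IS, 1 for 4 wpt over Post-IS, 2 for 8 wpt over Post-IS, 0 for 4 wpt over Pre-IS and 0 for 8 wpt over 4 wpt. Of 506 ratios of single members 449 stayed close, judged by the counting interval of each ratio, 55 moved and 2 turned round. Those 2 are given on the log2 scale. FOXP1 for 8 wpt over Post-IS was 0.11 in place of -0.90 in thinned cells without effector UMIs. CD28 for 4 wpt over Pre-IS was -0.15 in place of 0.66 in cells thinned to 500 UMIs. Thinned values here rest on 1 random draw. Apart from thinning and the fold of 2, which remove UMIs or calls by their construction, the cause was not tested.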
